A study of Homo sapiens with 12 samples.

Results

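A set of 10 genes that report and restrain signalling through the kinase ERK was followed in MV4-11, an established line of human acute myeloid leukaemia cells with a rearranged KMT2A gene and a FLT3 receptor activated by an internal tandem duplication. The 10 genes were DUSP4, DUSP5, DUSP6, SPRY1, SPRY2, SPRY4, SPRED1, SPRED2, ETV4 and ETV5, taken by symbol from the 58051 genes of the deposited count table. Each symbol matched 1 Ensembl gene, and 8 of the 10 passed the filter on low counts, among 14214 tested genes. Polyadenylated RNA had been sequenced after 6 h in 4 groups of 3 libraries: vehicle (0.1% DMSO), palbociclib, BSJ-03-123 and YKL-06-102, each compound at 200 nM. Palbociclib blocks the activity of the kinases CDK4 and CDK6, and both YKL-06-102 and BSJ-03-123 are phthalimide conjugates that the submitters call specific for CDK6. All libraries come from 1 cell line, and the labels do not say whether replicates were separate cultures. The p-values therefore reflect only how far these libraries spread, which may be technical.

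ERK is the last kinase of the RAS, RAF, MEK and ERK cascade, which activated FLT3 switches on in leukaemia cells of this kind. Active ERK raises transcription of its own inhibitors, so the mRNA of these genes is widely read as a gauge of pathway output. DUSP4, DUSP5 and DUSP6 encode dual-specificity phosphatases that remove phosphate from ERK, DUSP4 and DUSP5 in the nucleus and DUSP6 in the cytoplasm. The Sprouty proteins (SPRY1, SPRY2, SPRY4) and the related SPRED proteins (SPRED1, SPRED2) act higher up, on RAS and RAF, the SPREDs by bringing the RAS-inactivating protein neurofibromin to the membrane. ETV4 and ETV5 are ETS-family transcription factors whose genes are switched on by ERK, in part through relief of the repressor CIC.

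Library totals ranged from 18764307 to 25539858 counts. Replicates of every group differed by more than sampling noise, most of all DMSO replicate 2, whose chi-square per degree of freedom was 5.71 and 8.63 beside the remaining DMSO libraries and at most 2.91 in all other pairs of replicates. All 10 markers of myeloid and monocytic leukaemia cells were detected, the lowest being MPO at 6.49 to 10.4 CPM (counts scaled to library size, with TMM factors). Of 12 markers of other cell types, 9 stayed below 1 CPM in every library, among them EPCAM, MS4A1 and HBB at 0 counts. The other 3 were the keratins KRT8 and KRT18 and PECAM1, which leukocytes also carry.

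Promoter sequence is shown for the 3 members that rose with YKL-06-102, as the stretch of reference genome before their transcription starts. RefSeq's table (GRCh38.p14) held 10 promoter windows, for DUSP6, SPRY1, SPRY2, SPRY4, SPRED1 and SPRED2, and the other 4 members are named only. In DUSP6 (minus strand) the 250 bases before the start held 1 match to an ETS core and 1 to a CIC octamer. Both lie inside the 5′ untranslated part of a longer GENCODE transcript, so only 30 bases around each are given, with the match in capitals.

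DUSP6, ETS core, chr12:89352546-89352575: cggcaacagcccCTTCCGcagcacgctcat
DUSP6, CIC octamer, chr12:89352507-89352536: cggagaatgtaTCCATTGAgacgctcgctg

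The ETS core was searched as CGGAAG and the CIC octamer as TGAATGAA, TGAATGGA, TCAATGAA or TCAATGGA, on both strands, and in DUSP6 both matches are on the strand opposite to the gene. They begin 62 and 24 bases before the start and do not overlap. Of 35116 promoter windows of the same length, 16.5% held the ETS core and 3.18% a CIC octamer. Among the 10 windows of members, 2 held the ETS core (DUSP6 and the second SPRY1 window) and 1 a CIC octamer (DUSP6). The AP-1 letters TGANTCA (6.57% of all windows), the cyclic-AMP element TGACGTCA (1.65%) and the E2F letters TTTCCCGC, TTTCGCGC, TTTGCCGC or TTTGGCGC (2.79%) were in none of the 10. For SPRY2 and SPRED2 (both minus strand), whose farthest upstream windows held none of these motifs, capitals mark CpG dinucleotides.

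SPRY2, chr13:80341127-80341376: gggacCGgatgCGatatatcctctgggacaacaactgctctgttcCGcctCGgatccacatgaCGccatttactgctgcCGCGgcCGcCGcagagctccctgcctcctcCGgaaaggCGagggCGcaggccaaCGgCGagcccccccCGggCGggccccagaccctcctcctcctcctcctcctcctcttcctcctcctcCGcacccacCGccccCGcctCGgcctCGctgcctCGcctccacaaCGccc
SPRED2, chr2:65432638-65432849: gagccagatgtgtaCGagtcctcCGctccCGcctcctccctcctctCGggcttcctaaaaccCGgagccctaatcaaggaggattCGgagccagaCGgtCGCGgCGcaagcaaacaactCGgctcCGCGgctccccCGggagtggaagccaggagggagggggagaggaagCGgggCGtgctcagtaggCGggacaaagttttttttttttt

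The SPRY2 stretch holds 23 CpGs in 250 bases and the SPRED2 stretch 17 in 212, which stops where the annotated gene begins. The median promoter window held 11 CpGs in 250 bases. The other SPRY2 windows held 13 and 5 CpGs and the other SPRED2 window 3. The bases just after the printed SPRY2 stretch lie in no GENCODE transcript of SPRY2, while those after the SPRY2 window with 5 CpGs lie within such a transcript. Whether a transcript begins at the latter was not tested. A match or its absence describes these letters alone.

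Levels of the members were compared with each other per length, as CPM per kilobase of annotated exon. DUSP6 was the highest in DMSO, at 10.8 ± 0.441 (SD, n = 3 libraries), above 68.0% of 14163 tested genes with a length. SPRED2 followed at 5.37 ± 0.134. SPRY2 (3.54 ± 0.136), DUSP5 (3.499 ± 0.132) and ETV5 (3.41 ± 0.110) came next, each within the spread of its neighbour in that order, and ETV4 (3.10 ± 0.214) lay below them with no overlap of its DMSO libraries with those of ETV5. DUSP4 was lower at 0.568 ± 0.0741. SPRY1 (0.0653 ± 0.0324), SPRY4 (0.0648 ± 0.0403) and SPRED1 (0) were close to the limit of detection, so of the Sprouty genes SPRY2 carried nearly all counts and of the SPRED genes SPRED2 did.

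**Figure D1:**
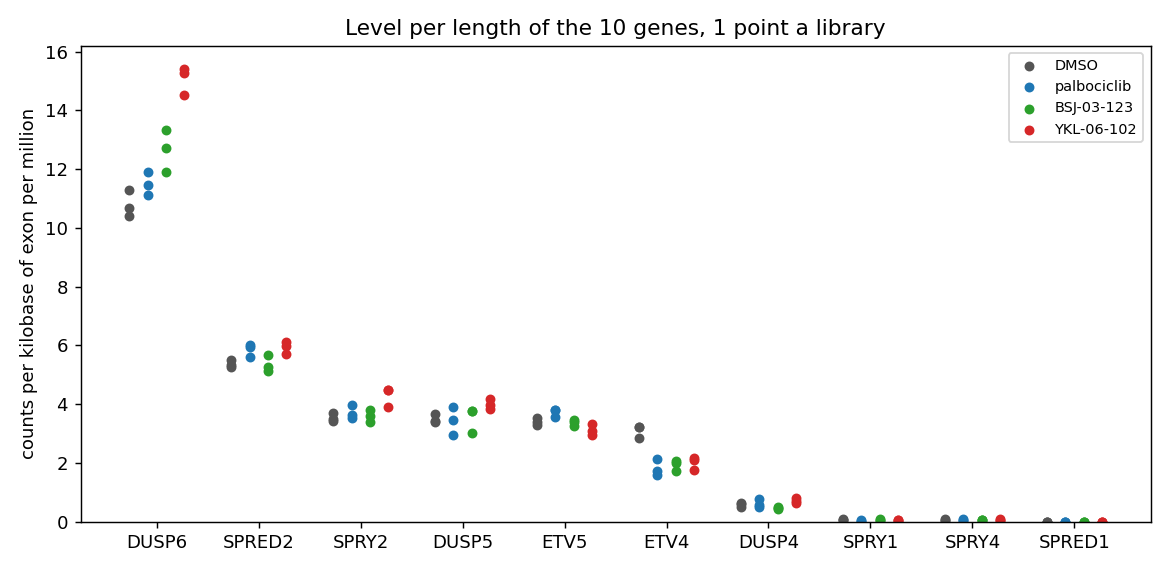
Level per length of the 10 genes (vertical axis: CPM per kilobase of annotated exon, linear from 0), 1 point a library, coloured by group. DUSP6 lies highest, at 10.8 in DMSO and 15.1 with YKL-06-102 on average, and SPRY1, SPRY4 and SPRED1 lie near 0.

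DUSP6, the phosphatase specific for ERK, rose with both conjugates, more with YKL-06-102 than with BSJ-03-123. Its CPM was 49.5, 52.2 and 48.3 in the DMSO libraries, 55.1, 53.1 and 51.5 with palbociclib, 58.9, 61.8 and 55.1 with BSJ-03-123 and 70.7, 71.4 and 67.3 with YKL-06-102. All YKL-06-102 libraries lay above all others, the BSJ-03-123 libraries lay above DMSO, and the palbociclib libraries overlapped with DMSO. Against DMSO the log2 fold change was 0.48 ± 0.046 (SE) with YKL-06-102, a 1.39-fold increase (adjusted p = 1.82e-09 by edgeR's quasi-likelihood test with Benjamini-Hochberg adjustment), and 0.23 ± 0.048, or 1.17-fold, with BSJ-03-123 (edgeR adjusted p = 5.61e-04). With palbociclib it was 0.089 ± 0.048 (95% interval -0.0093 to 0.19, edgeR adjusted p = 0.163), which passed the test with library totals as the only scaling (0.14 ± 0.047, edgeR adjusted p = 0.0237). DUSP6 was also higher with YKL-06-102 than with palbociclib (0.39 ± 0.045, edgeR adjusted p = 1.12e-07) and than with BSJ-03-123 (0.25 ± 0.045, edgeR adjusted p = 1.18e-04). BSJ-03-123 against palbociclib gave 0.14 ± 0.047 (95% interval 0.041 to 0.23) and missed the threshold (edgeR adjusted p = 0.343).

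DUSP6 is ENSG00000139318, chromosome 12, 89347232 to 89353271 on the minus strand in GRCh38 (GENCODE 29). Its exons share 1875 bases with the antisense gene AC024909.2, at 0.910 CPM on average against 58.0 for DUSP6. Whether strand was used in counting is not given in the sources used here. AC024909.2 changed by 0.11 ± 0.29 with YKL-06-102 and -0.45 ± 0.32 with BSJ-03-123 on the log2 scale and passed the test with neither (edgeR adjusted p = 0.798 and 0.332). The summed level of the 10 myeloid markers was 2137 to 2162 CPM in DMSO, 2268 to 2282 with BSJ-03-123, 2302 to 2333 with palbociclib and 2608 to 2636 with YKL-06-102. DUSP6 was highest with YKL-06-102 too. Its mean was lower with palbociclib than with BSJ-03-123, as was that of the marker CSF1R (89.1 and 91.8 CPM), while FLT3 was higher (454 and 418 CPM). None of these genes passed the test between palbociclib and BSJ-03-123. The 12 markers of other cell types summed to 154 to 155 CPM in DMSO, 161 to 164 with BSJ-03-123, 165 to 172 with palbociclib and 138 to 145 with YKL-06-102. Most of that was PECAM1 (137 CPM on average in DMSO). The part of these markers in the DUSP6 result was not tested. In bulk RNA, a change in each cell and a change in the share of cells that express a gene cannot be told apart.

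The nuclear phosphatases DUSP4 and DUSP5 passed the test against DMSO with no compound. DUSP4 stood at 3.504, 4.35 and 4.501 CPM in DMSO, 4.18, 3.62 and 5.49 with palbociclib, 3.71, 3.11 and 3.44 with BSJ-03-123 and 5.73, 5.201 and 4.73 with YKL-06-102. The YKL-06-102 libraries were the highest group and the BSJ-03-123 libraries the lowest group by mean, and these 2 groups did not overlap. DUSP4 was 1.53-fold higher with YKL-06-102 than with BSJ-03-123 (log2 0.61 ± 0.15, edgeR adjusted p = 0.00244). Against DMSO its log2 fold changes were 0.34 ± 0.14 with YKL-06-102 (edgeR adjusted p = 0.0581), -0.27 ± 0.16 with BSJ-03-123 (0.201) and 0.090 ± 0.15 with palbociclib (0.681). The YKL-06-102 value was called without DMSO replicate 2 (0.41), DMSO replicate 3 (0.39) or YKL-06-102 replicate 3 (0.42), with edgeR adjusted p from 0.0369 to 0.0489. Against palbociclib DUSP4 differed by 0.25 ± 0.13 with YKL-06-102, and 0.42 without palbociclib replicate 3, where the test was passed (edgeR adjusted p = 0.0315).

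DUSP5 was 8.996, 8.91 and 9.54 CPM in DMSO, 10.2, 9.09 and 7.75 with palbociclib, 9.87, 9.85 and 7.92 with BSJ-03-123 and 10.1, 10.4 and 10.9 with YKL-06-102. Only the YKL-06-102 libraries lay above all DMSO libraries, by a log2 fold change of 0.196 ± 0.096 (95% interval -0.0018 to 0.39, edgeR adjusted p = 0.115). Palbociclib gave -0.010 ± 0.0997 and BSJ-03-123 0.011 ± 0.10 (edgeR adjusted p = 0.952 for both), with 95% intervals of -0.21 to 0.19 and -0.196 to 0.22. DUSP5 passed the test for YKL-06-102 against palbociclib only without palbociclib replicate 1 (0.33, edgeR adjusted p = 0.0249, against 0.21 and 0.117 with all libraries). DUSP4 lies on chromosome 8 (ENSG00000120875, 29333064 to 29350668) and DUSP5 on chromosome 10 (ENSG00000138166, 110497838 to 110511544).

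**Figure D2:**
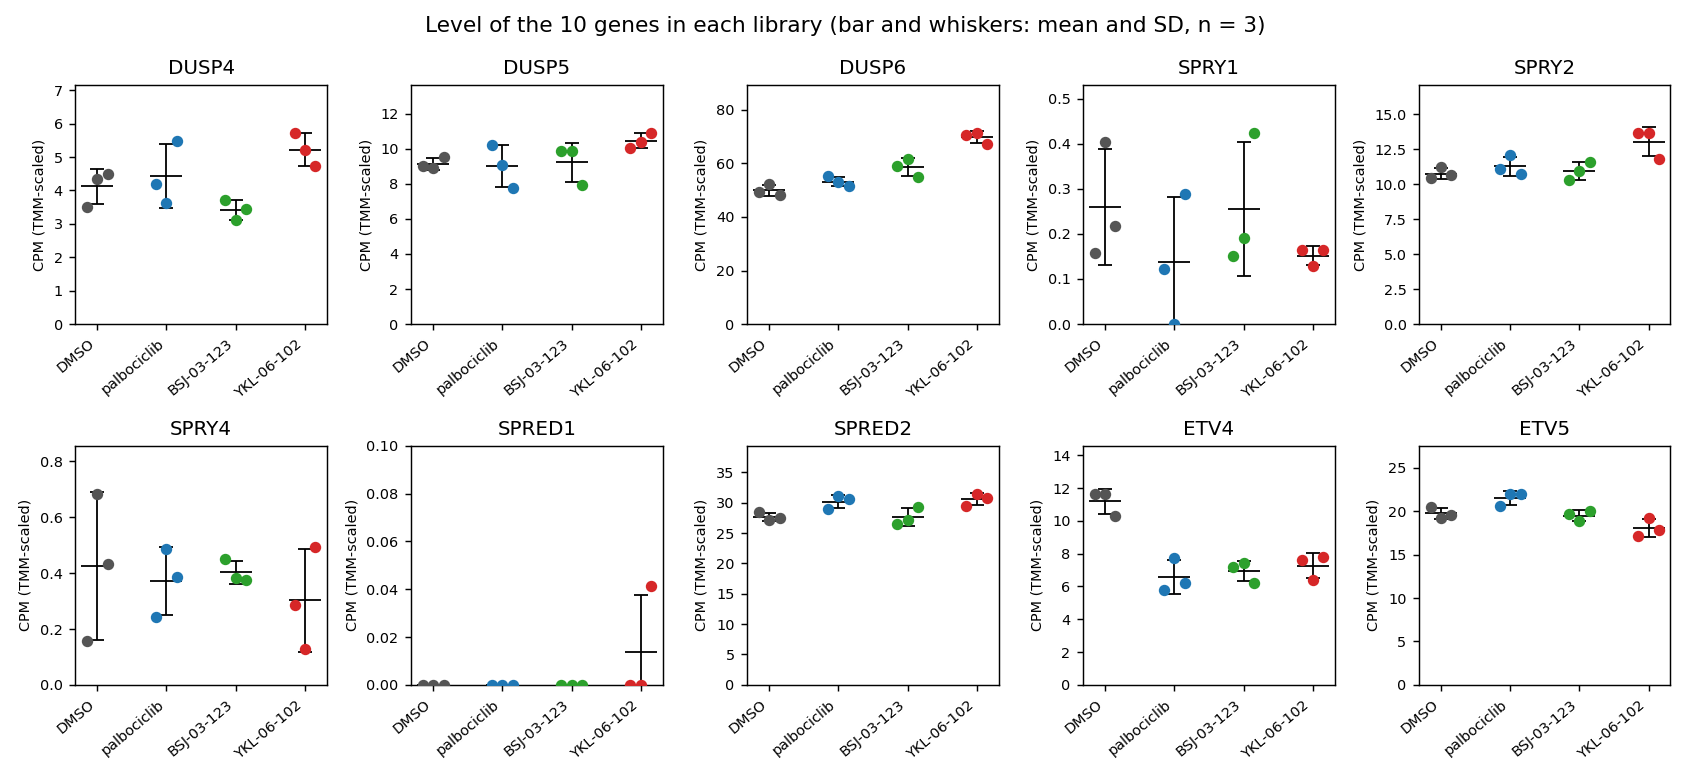
CPM of each of the 10 genes (vertical axes, linear from 0, a scale of its own for each gene) in the 4 groups, 1 point a library, with the group mean and SD as bar and whiskers. DUSP6 is highest with YKL-06-102 (67.3 to 71.4 CPM), and ETV4 is highest in DMSO (10.3 to 11.7 CPM) and lower in every treated library (5.76 to 7.78 CPM).

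Of the Sprouty genes, SPRY2, an inhibitor that acts between growth factor receptors and RAF, rose with YKL-06-102. It was 10.4, 11.2 and 10.6 CPM in DMSO, 11.1, 12.05 and 10.7 with palbociclib, 10.3, 10.9 and 11.6 with BSJ-03-123 and 13.7, 13.6 and 11.8 with YKL-06-102. The YKL-06-102 libraries lay above all DMSO and BSJ-03-123 libraries, while the lowest of them, replicate 3, lay within the palbociclib range. The log2 fold change against DMSO was 0.27 ± 0.080, or 1.21-fold (edgeR adjusted p = 0.00732). Palbociclib gave 0.067 ± 0.083 (95% interval -0.102 to 0.24) and BSJ-03-123 0.022 ± 0.085 (-0.15 to 0.196), and neither passed the test (edgeR adjusted p = 0.578 and 0.884).

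SPRY2 was higher with YKL-06-102 than with BSJ-03-123 by 0.25 ± 0.080 (edgeR adjusted p = 0.0239). That call was lost without BSJ-03-123 replicate 1 (0.23) or 2 (0.25), without YKL-06-102 replicate 1 (0.24) or 2 (0.24), and with DESeq2's Wald test (0.26, DESeq2 adjusted p = 0.0585), over a range of adjusted p from 0.00466 to 0.0721. Against palbociclib SPRY2 was 0.21 ± 0.078 higher with YKL-06-102 and missed the threshold (edgeR adjusted p = 0.0522). It passed without YKL-06-102 replicate 3 (0.296, edgeR adjusted p = 0.00995) or palbociclib replicate 2 (0.28, 0.0247). SPRY2 is ENSG00000136158, chromosome 13, 80335976 to 80340951, minus strand.

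SPRY1 and SPRY4, the other Sprouty members, had few counts in every library. SPRY4 had 3, 17 and 8 counts in the DMSO libraries, 6, 11 and 8 with palbociclib, 9, 8 and 8 with BSJ-03-123 and 7, 3 and 12 with YKL-06-102. All groups overlapped. It passed the filter at these counts and the test in no comparison. The 95% interval for YKL-06-102 against DMSO ran from -1.52 to 0.43 on the log2 scale, so a 2-fold decrease is not excluded. SPRY1 had 0 to 10 counts a library, with group sums of 17 in DMSO, 9 with palbociclib, 16 with BSJ-03-123 and 11 with YKL-06-102. It was not tested. These genes are ENSG00000164056 (SPRY1, chromosome 4, 123396795 to 123403760) and ENSG00000187678 (SPRY4, chromosome 5, 142310427 to 142326455).

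Of the SPRED genes only SPRED2 was clearly detected. SPRED1, mutated in Legius syndrome, had 0 counts in 11 libraries and 1 count in YKL-06-102 replicate 3. A count of 0 allows up to 3 counts, or 0.121 to 0.163 CPM in these libraries, and covers counting error only. SPRED2 was 28.5, 27.1 and 27.4 CPM in DMSO, 28.9, 31.03 and 30.6 with palbociclib, 26.4, 27.1 and 29.2 with BSJ-03-123 and 29.5, 31.5 and 30.8 with YKL-06-102. The palbociclib and YKL-06-102 libraries lay above all DMSO libraries, and BSJ-03-123 overlapped with DMSO.

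SPRED2 rose with YKL-06-102 by 0.15 ± 0.053, or 1.11-fold (edgeR adjusted p = 0.0326), a small difference. The call was lost without DMSO replicate 3 (0.14) or YKL-06-102 replicate 2 (0.14), and with DESeq2 (0.16, DESeq2 adjusted p = 0.0606), with adjusted p from 0.00789 to 0.072 over 12 alternatives. Palbociclib gave 0.12 ± 0.054 (edgeR adjusted p = 0.0784, and 0.0132 with library totals, where the value was 0.17), and BSJ-03-123 -0.0025 ± 0.056 (0.981). SPRED2 was higher with YKL-06-102 than with BSJ-03-123 (0.15 ± 0.054, edgeR adjusted p = 0.0494), a call kept in 4 of 12 alternatives. It was lost without BSJ-03-123 replicate 1 (0.14) or 2 (0.14) and without YKL-06-102 replicate 2 (0.15) or 3 (0.17). Also lost were the fits with library totals (0.14), with no filter (0.16), with DESeq2 (0.16) and with replicate number as a block (0.15, edgeR adjusted p = 0.0514), and adjusted p ranged from 0.0213 to 0.128. SPRED2 is ENSG00000198369, chromosome 2, 65310851 to 65432637, and SPRED1 ENSG00000166068, chromosome 15, 38252326 to 38357249.

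ETV4 fell with every compound and was the only member that fell against DMSO. Its CPM was 11.7, 11.6 and 10.3 in DMSO, 5.76, 7.72 and 6.21 with palbociclib, 7.17, 7.41 and 6.22 with BSJ-03-123 and 7.61, 6.39 and 7.78 with YKL-06-102. All 9 treated libraries lay below the 3 DMSO libraries, and the treated groups overlapped with each other. The log2 fold changes were -0.78 ± 0.11 with palbociclib (1.71 times lower, edgeR adjusted p = 1.09e-06), -0.696 ± 0.11 with BSJ-03-123 (1.62 times lower, 8.26e-06) and -0.63 ± 0.10 with YKL-06-102 (1.54 times lower, 1.31e-05). These 3 comparisons share the DMSO libraries. Between compounds ETV4 differed by 0.079 ± 0.12 for BSJ-03-123 against palbociclib, 0.15 ± 0.11 for YKL-06-102 against palbociclib and 0.069 ± 0.11 for YKL-06-102 against BSJ-03-123, and none passed the test (edgeR adjusted p = 0.916, 0.373 and 0.744). The 95% intervals of those differences, -0.16 to 0.32, -0.080 to 0.38 and -0.16 to 0.299, do not show that the compounds act alike on ETV4.

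ETV4 (ENSG00000175832, chromosome 17, 43527844 to 43579620, minus strand) shares 68 exon bases with DHX8, an RNA helicase gene on the opposite strand at 128 CPM on average. DHX8 changed by 0.038 ± 0.035 with palbociclib, 0.070 ± 0.035 with BSJ-03-123 and 0.21 ± 0.034 with YKL-06-102, so its values did not fall with any compound (edgeR adjusted p = 0.438, 0.139 and 9.77e-06).

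ETV5, the close relative of ETV4, did not follow it. It was 20.5, 19.2 and 19.6 CPM in DMSO, 20.6, 21.98 and 22.1 with palbociclib, 19.7, 18.8 and 19.98 with BSJ-03-123 and 17.2, 19.3 and 17.9 with YKL-06-102. The palbociclib libraries lay above all others, and the YKL-06-102 libraries overlapped with DMSO and BSJ-03-123. Against DMSO the log2 fold changes were 0.13 ± 0.061 with palbociclib, -0.016 ± 0.063 with BSJ-03-123 and -0.12 ± 0.062 with YKL-06-102. None passed the test (edgeR adjusted p = 0.118, 0.89 and 0.123). With library totals as the only scaling the palbociclib value passed (0.17, edgeR adjusted p = 0.0263). ETV5 was lower with YKL-06-102 than with palbociclib by 0.25 on the log2 scale (-0.25 ± 0.060, 1.19 times lower, edgeR adjusted p = 0.00234). It is ENSG00000244405, chromosome 3, 186046308 to 186110318, minus strand, and shares 164 exon bases with DGKG on the same strand, which passed the test in no comparison.

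**Figure D3:**
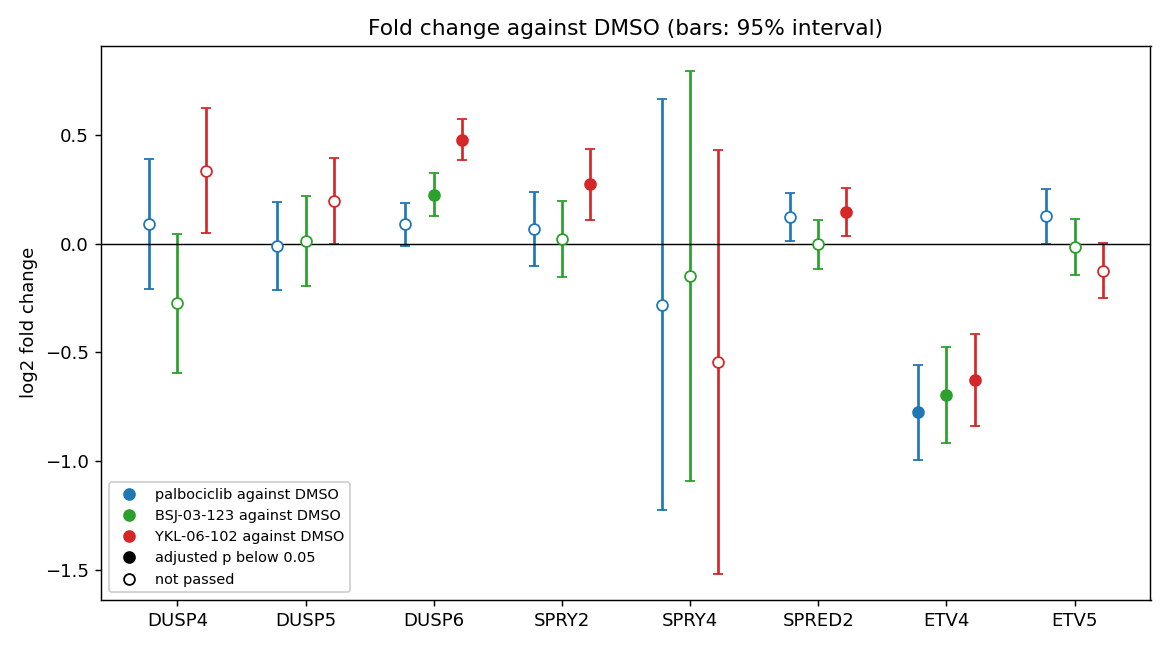
Log2 fold change against DMSO (vertical axis) of the 8 tested members for palbociclib, BSJ-03-123 and YKL-06-102, with 95% intervals as bars and filled points where the edgeR adjusted p was below 0.05. ETV4 lies at -0.78 to -0.63 for all 3 compounds, DUSP6 at 0.23 and 0.48 for the conjugates, and the SPRY4 intervals are the widest.

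Counted over the set, 1 of the 8 tested members changed with palbociclib (ETV4, lower), where 33.3% of all tested genes were called, 15.6% higher and 17.6% lower. With BSJ-03-123 it was 2 of 8 (DUSP6 higher, ETV4 lower), against 28.1% of all genes, 12.4% higher and 15.7% lower. With YKL-06-102 it was 4 of 8 (DUSP6, SPRY2 and SPRED2 higher, ETV4 lower), against 36.9%, 15.6% higher and 21.3% lower. The share of members called was thus below that of all genes with palbociclib and near it with BSJ-03-123. The median log2 fold change of the 8 was 0.078, -0.0093 and 0.17 in that order, and that of all tested genes 0.014, 0.0075 and -0.017. Libraries of the compound and of DMSO did not overlap for 3, 2 and 6 members, against 41.7%, 37.2% and 44.7% of all genes. At an unadjusted p below 0.05 by edgeR the counts were 3, 2 and 5. The share of all genes at that threshold was not computed, so these counts do not set the members apart from other genes.

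Between compounds, 3 pairs were compared at 200 nM and 6 h, with p-values adjusted over all tested genes of each pair. BSJ-03-123 and palbociclib differed in 0 of the 8 members by edgeR, where 0.155% of all genes were called, and in 0 by DESeq2. Libraries did not overlap for 1 member (15.2% of all genes). At an unadjusted p below 0.05 by edgeR, 4 members passed. The share of all genes at that threshold was not computed, so this count does not set the members apart from other genes. Those 4 were DUSP4 (-0.36 ± 0.15), DUSP6, SPRED2 (-0.13 ± 0.054) and ETV5 (-0.14 ± 0.061). Apart from SPRY4, the 95% intervals of this pair ran from -0.68 to 0.32 on the log2 scale, which does not show that the compounds act alike on these genes. YKL-06-102 and palbociclib differed in 2 of 8 (DUSP6 higher, ETV5 lower), against 24.7% of all genes, 12.7% higher and 11.9% lower, and their libraries did not overlap for these 2 members (41.0% of all genes). YKL-06-102 and BSJ-03-123 differed in 4 of 8, all higher with YKL-06-102 (DUSP4, DUSP6, SPRY2, SPRED2), where 20.1% of all genes were called, 10.4% higher and 9.74% lower. Their libraries did not overlap for 5 members, against 35.6% of all genes. DUSP4 gave the largest of these differences, at 0.61. The labels give both conjugates as phthalimide conjugates and name no structural difference between them.

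**Figure D4:**
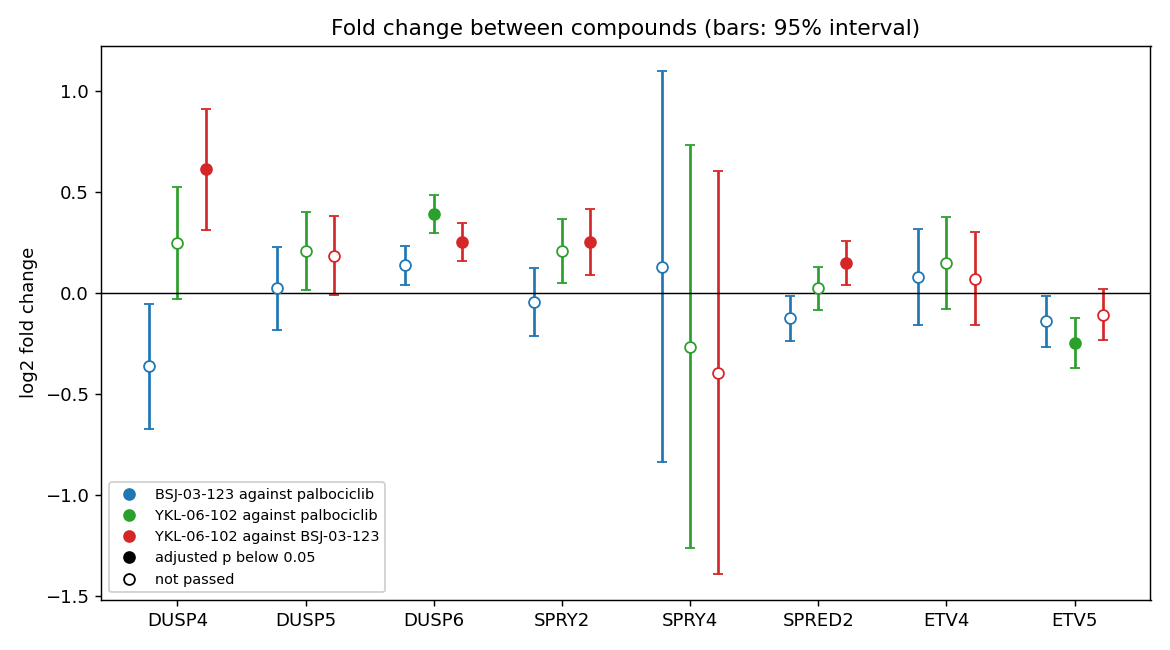
Log2 fold change between compounds (vertical axis) of the 8 tested members for the 3 pairs, with 95% intervals as bars and filled points where the edgeR adjusted p was below 0.05. DUSP4, DUSP6, SPRY2 and SPRED2 are filled and above 0 for YKL-06-102 against BSJ-03-123, and ETV5 is filled and below 0, at -0.25, for YKL-06-102 against palbociclib.

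For each tested member, the genes with the most similar profile were found by Pearson's r of log2 CPM over the 12 libraries, among 10361 genes whose average log2 CPM was 2 or more. These r values describe 4 groups of 3 libraries, and the genes were picked for a high r. After group means were removed, r of the picked genes ranged from 0.574 (ETV5 with LINC01278) to 0.873 (SPRY2 with RTL5). For SPRY4 with AC010186.2 it was 0.861 after removal and 0.848 before, at few counts of SPRY4 a library. The values thus rest on spread within groups as well as on group means. DUSP6 was closest to the SRC-family kinase gene LYN (r = 0.983), the transporter gene FLVCR2 (0.975) and the histamine receptor gene HRH2 (0.9699). LYN rose by 0.28 ± 0.032 with YKL-06-102 and 0.12 ± 0.032 with BSJ-03-123 and passed no test with palbociclib (0.058 ± 0.032), the same calls as DUSP6. FLVCR2 rose with all 3, by 1.03 ± 0.062, 0.51 ± 0.066 and 0.25 ± 0.066 with YKL-06-102, BSJ-03-123 and palbociclib.

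ETV4 was closest to NABP2, a single-stranded DNA binding protein gene (r = 0.96), CDKN2D, an inhibitor of CDK4 and CDK6 (0.957), and LRP11 (0.956). Each of these fell with every compound, LRP11 with log2 fold changes of -0.75 ± 0.064, -0.76 ± 0.065 and -0.56 ± 0.062 for palbociclib, BSJ-03-123 and YKL-06-102. SPRY2 was closest to RTL5 (0.948), the growth factor gene TGFA (0.908) and FSTL3 (0.889). The remaining members had lower best values: SPRED2 with KCP (0.907), ETV5 with LINC01278 (0.917), DUSP4 with TMEM60 (0.899), DUSP5 with ITSN1 (0.888) and SPRY4 with AC010186.2 (0.848). Among members themselves the highest r was that of DUSP6 with SPRY2 (0.749, or 0.219 after group means were removed), and ETV4 with ETV5 had -0.15.

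Paralogs outside the set gave a mixed picture. Of 10 listed, 8 were tested, and 1 was higher and 1 lower with palbociclib, 1 and 1 with BSJ-03-123 and 4 and 2 with YKL-06-102, beside 33.3%, 28.1% and 36.9% of all tested genes called in either direction. DUSP7, a cytoplasmic ERK phosphatase like DUSP6, rose with each compound, from 124.5 CPM in DMSO to 132 with palbociclib (0.089 ± 0.032), 139 with BSJ-03-123 (0.16 ± 0.032) and 146 with YKL-06-102 (0.23 ± 0.032). The nuclear phosphatase DUSP2 fell with each, at -0.36 ± 0.075, -0.21 ± 0.075 and -0.40 ± 0.074. DUSP16, which acts on JNK and p38 kinases, rose with YKL-06-102 from 1.69 to 2.81 CPM (0.74 ± 0.19), and SPRY3 from 0.504 to 0.941 CPM (0.87 ± 0.30). SPRY3 averaged 0.811 CPM with palbociclib (0.65 ± 0.31) and 0.840 with BSJ-03-123 (0.70 ± 0.31), which did not pass the test against DMSO. YKL-06-102 did not pass against either of them for SPRY3 (edgeR adjusted p = 0.594 and 0.729).

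Among the genes of the cascade, all 44 listed, from FLT3 to the ERK substrates, were tested: 9 rose and 7 fell with palbociclib, 11 and 4 with BSJ-03-123 and 13 and 7 with YKL-06-102, with medians of 0.028, 0.036 and 0.031. Over all tested genes 33.3%, 28.1% and 36.9% were called in these comparisons. By direction, 15.6%, 12.4% and 15.6% of all tested genes rose and 17.6%, 15.7% and 21.3% fell. Whether the list differs from all genes was not tested. ETS1, the gene of an ERK-phosphorylated transcription factor, gave the largest increase, from 2.92 to 4.38 CPM with YKL-06-102 (0.59 ± 0.15, edgeR adjusted p = 0.00236), and was also higher than with palbociclib (0.90) and BSJ-03-123 (0.98). FLT3, the receptor mutated in these cells, rose from 393 CPM to 454 with palbociclib (0.21 ± 0.032) and to 418 with BSJ-03-123 (0.090 ± 0.032). With YKL-06-102 FLT3 was at 386 (-0.026 ± 0.032), where the test was not passed. HRAS fell with each compound (-0.304 ± 0.061, -0.31 ± 0.062 and -0.33 ± 0.060 with palbociclib, BSJ-03-123 and YKL-06-102), and NRAS, BRAF and ARAF passed the test against DMSO with none.

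MAP2K1, the gene of MEK1, fell with palbociclib and BSJ-03-123 (-0.17 ± 0.046 for both). MAPK3 and MAP2K2 passed with none. RPS6KA1, an ERK-activated kinase, rose with palbociclib (0.35 ± 0.033), BSJ-03-123 (0.296 ± 0.033) and YKL-06-102 (0.18 ± 0.033). With YKL-06-102 the calls with the smallest p were increases of the adaptor GAB2 (0.28 ± 0.034), the RAS inactivator NF1 (0.34 ± 0.045), the ubiquitin ligase CBL (0.28 ± 0.038) and PEA15, which holds ERK in the cytoplasm (0.26 ± 0.036). NF1 rose with BSJ-03-123 too (0.29 ± 0.046), and CBL with palbociclib (0.16 ± 0.038) and BSJ-03-123 (0.25 ± 0.038). Neither NF1 nor CBL passed the test for YKL-06-102 against BSJ-03-123. GAB2 and PEA15 passed against DMSO with YKL-06-102 only. The repressors CIC (0.098 ± 0.035) and ERF (0.13 ± 0.050) rose with YKL-06-102 (edgeR adjusted p = 0.0268 and 0.0375), though their libraries overlapped with DMSO. They passed the test against DMSO with neither other compound. Both were higher with YKL-06-102 than with palbociclib (0.13 ± 0.035 and 0.24 ± 0.050).

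Other genes known to respond to ERK did not move as a block. Of 20 listed, 17 were tested: 3 rose and 1 fell with palbociclib, 1 and 1 with BSJ-03-123 and 7 and 2 with YKL-06-102, with medians of 0.062, 0.061 and 0.11, beside the 33.3%, 28.1% and 36.9% of all tested genes. EGR1, an immediate-early transcription factor, rose from 5.19 to 6.76 CPM with palbociclib (0.39 ± 0.13) and 7.39 with YKL-06-102 (0.51 ± 0.12). PHLDA1 rose with palbociclib (0.29 ± 0.098) and CCND1, the cyclin D1 gene, with BSJ-03-123 (0.28 ± 0.077) and YKL-06-102 (0.24 ± 0.075). IER5 fell with all 3, from 31.2 CPM to 27.7, 25.5 and 19.03 with palbociclib, BSJ-03-123 and YKL-06-102 (-0.18 ± 0.062, -0.298 ± 0.064 and -0.72 ± 0.066). The cytokine gene LIF rose with YKL-06-102 from 0.328 to 1.22 CPM (1.91 ± 0.38), the pseudokinase gene TRIB1 from 11.2 to 16.7 CPM (0.57 ± 0.081) and MCL1 from 198 to 218 CPM (0.14 ± 0.031).

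**Figure D5:**
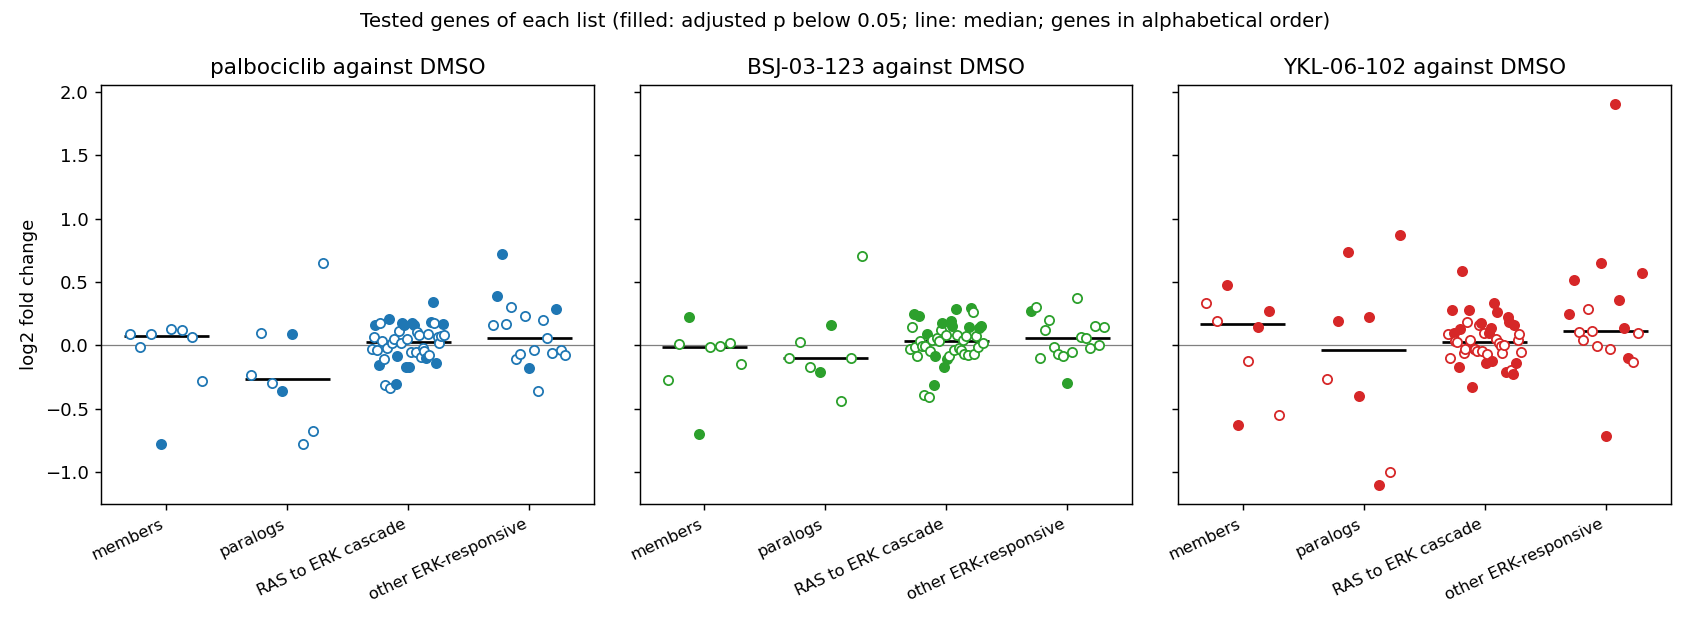
Log2 fold change against DMSO (vertical axis) of every tested gene of the 4 lists, 1 panel a compound, filled where the edgeR adjusted p was below 0.05, with the list median as a line. Medians of the members are 0.078, -0.0093 and 0.17, those of the 44 cascade genes lie near 0, and LIF is the highest point, at 1.91 with YKL-06-102.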

How the data were processed

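Per the labels' protocols, 12 MV4-11 libraries were made from polyadenylated RNA with a stranded TruSeq kit. The authors deposited raw read counts per Ensembl gene, with no normalization, and each of the 12 columns matched 1 labelled library (18764307 to 25539858 counts). The submitters' processing notes name Trimmomatic 0.36, STAR 2.5.2b, HTSeq and the build hg38. Annotation release and strand setting: not given in the sources used here.

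Gene names, coordinates and exon lengths came from GENCODE 29 (GRCh38), which named 57447 of 58051 IDs. The counts were fitted with edgeR 4.0.16 in R 4.3.3 (TMM factors, quasi-likelihood fit of all 12 libraries, 8 residual degrees of freedom), for 14214 genes kept by filterByExpr (minimum count 10, minimum total 15). Tests of 6 contrasts were 2-sided, and a gene was called at a Benjamini-Hochberg adjusted p below 0.05 over all tested genes. Standard errors and 95% intervals are Wald values. The script was tested on simulated data. Profiles were compared on log2(CPM + 0.5).

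The members and lists were chosen with earlier results of these data known. Named genes were all 10 members, the 3 most similar profiles of each, and from each other list up to 4 called genes a contrast by smallest p, the genes of RAS, RAF, MEK and ERK, FLT3, CIC and ERF. A few genes that the rule names are not reported here. The motifs searched and the sequences printed were chosen after the results were seen. Alternatives were DESeq2 1.42.0 size factors, library totals, no filter, DESeq2's Wald test, only the 2 groups compared, a replicate block and each library left out.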

Additional observations from a re-analysis of the deposited data

How the results depend on the processing

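Of 13 calls of members over the 6 comparisons, 10 held in all 12 alternatives run for each: ETV4 lower with each compound, DUSP6 higher with both conjugates against DMSO and with YKL-06-102 against the other compounds, SPRY2 higher with YKL-06-102 against DMSO, ETV5 lower with YKL-06-102 against palbociclib and DUSP4 higher with YKL-06-102 against BSJ-03-123. The count of members changed with palbociclib was 4 in place of 1 with library totals (3 higher, 1 lower), and that for YKL-06-102 against BSJ-03-123 was 2 in place of 4 with DESeq2. With library totals the median of all tested genes against DMSO shifted to 0.062, 0.051 and 0.021 for palbociclib, BSJ-03-123 and YKL-06-102, and calls over all genes were 3392 higher and 1950 lower, 2852 and 1766, and 2875 and 2425, against 2224 and 2507, 1763 and 2234, and 2215 and 3034 with TMM factors. For BSJ-03-123 against palbociclib, 22 genes became 64 with no filter, 40 with DESeq2 and 75 in a fit of these groups only. Other reversals of sign were in members that were not called: DUSP5 with palbociclib (0.037 with library totals, 0.0088 with no filter), and with BSJ-03-123 SPRED2 (0.041 and 0.0095) and ETV5 (0.028 with library totals). The causes were not tested.

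With each library left out in turn, the number of changed members was 1 with palbociclib, 2 with BSJ-03-123, 3 to 5 with YKL-06-102, 0 for BSJ-03-123 against palbociclib, 2 to 3 for YKL-06-102 against palbociclib and 2 to 4 for YKL-06-102 against BSJ-03-123. Over all genes the calls against DMSO were 3876 to 4599 with palbociclib, 3343 to 4088 with BSJ-03-123 and 4442 to 5583 with YKL-06-102. Between compounds they were 3 to 14 for BSJ-03-123 against palbociclib, 2707 to 3042 for YKL-06-102 against palbociclib and 2222 to 2431 for YKL-06-102 against BSJ-03-123. Uncalled log2 fold changes that crossed 0 ranged, with palbociclib, from -0.081 to 0.21 (DUSP4), -0.11 to 0.080 (DUSP5) and -0.65 to 0.32 (SPRY4). With BSJ-03-123 they ranged from -0.048 to 0.11 (DUSP5), -0.026 to 0.058 (SPRY2), -0.051 to 0.024 (SPRED2), -0.042 to 0.0027 (ETV5) and -0.52 to 0.45 (SPRY4), and with YKL-06-102 from -1.06 to 0.075 (SPRY4). For BSJ-03-123 against palbociclib the ranges were -0.072 to 0.12 (DUSP5), -0.12 to 0.38 (SPRY4), -0.016 to 0.21 (ETV4) and -0.089 to 0.0035 (SPRY2), for YKL-06-102 against palbociclib -0.78 to 0.11 (SPRY4) and for YKL-06-102 against BSJ-03-123 -0.00090 to 0.17 (ETV4).

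Groups share replicate numbers, but the labels do not say that a number pairs libraries: deviations from group means correlated over 0.1 in 2 of 18 same-numbered pairs (-0.17 to 0.23), and 7 of 12 libraries correlated best with their own number in another group. With the replicate block the counts of changed members were 1, 2 and 4 against DMSO, 0 and 2 against palbociclib and 3 for YKL-06-102 against BSJ-03-123, where SPRED2 was the call lost. Depth limits SPRY1, SPRY4 and SPRED1, whose library counts did not exceed 17.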
